A study of Canis lupus familiaris with 32 samples.

Results

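The genes described here were 265 of the 24580 genes measured in hip soft tissues of dogs, and they lost expression in steps from embryo to young dog to adult. They were chosen by their levels in the embryo, young and adult control libraries. In both hip joint capsule and teres ligament, the embryo mean was at least 2 times the young mean and the young mean at least 2 times the control mean. The young mean was at least 1 CPM (a gene's fragment count relative to the library total) in each tissue and the embryo mean at least 5 CPM. The average of the 7 group means stayed below 1000 CPM, and 2 genes were left out by the rule, which gives no reason. Every difference between embryo, young and control libraries given below was therefore fixed by the choice and is a description without a test.

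RNA was sequenced after removal of ribosomal RNA, in strand-specific libraries, from dogs that develop hip dysplasia naturally and from controls. Dogs affected by hip dysplasia gave 4 capsules (1 adult, 3 aged 4 months) and 7 ligaments (4 adult, 3 aged 4 months). Adult control dogs gave 5 capsules and 3 ligaments, and young dogs under 1 month of age gave 6 capsules and 4 ligaments. The 3 embryo libraries are labelled embryonic hip, with neither capsule nor ligament named, so age and tissue differ together at the step from embryo to young. All controls were adults, and none of these libraries came from a dog of 4 months labelled unaffected. Breed and treatment are not given in the labels used here, and young and embryo samples are not labelled as affected or unaffected.

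The capsule encloses the hip joint in fibrous tissue, while the teres ligament is a cord within the joint that ties the femoral head to its socket. In textbook terms, embryonic joint tissues are rich in dividing cells that lay down new matrix, and after birth division slows while fibroblasts mature and the matrix is maintained rather than built. In bulk tissue a falling transcript level can reflect fewer cells of a type or less RNA per cell, and these cannot be told apart here. The deposited tables list genes by Ensembl ID alone, with no gene name beside an ID. No function can therefore be given for a gene below, and no marker of a cell type could be checked in any tissue. Copies of near-identical genes and overlapping genes could not be recognised either, which leaves the fragments of each named ID uncertain to that extent.

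The 32 libraries came from 25 dogs, and 7 dogs gave both tissues (3 young, 3 affected at 4 months and 1 control). Library totals ran from 2857235 to 9895143 fragments, with a median of 4993068. Replicates of a group were different dogs by the identifiers in the labels. The young capsule and the young ligament numbered 2 came from 1 dog, and both stood apart from the other young libraries for the genes described here. That dog's identifier begins like those of the 3 affected dogs aged 4 months, and no adult's does. The main descriptions that rest on the young libraries are given with and without this dog, a choice made after the data had been seen.

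Of 11642 genes with an embryo mean of at least 5 CPM, 2581 were at least 2-fold higher in embryo than in young dogs in both tissues, and 2121 of these had a young mean of at least 1 CPM in both. A further 2-fold fall from young to control was rarer. Among those 2121 genes, the step from young to control was at least 2-fold in capsule for 409, in ligament for 337 and in both for 268, so 141 fell further in capsule alone and 69 in ligament alone by this cutoff. The limit on abundance and the 2 genes left out reduced the 268 to 265, which is 12.5% of the 2121 and 1.08% of all genes. The cutoff of 2 lay in a continuous distribution. Among the 4 ratios that a gene had to meet, the smallest was 2.002 in the gene just inside and 1.998 in the gene just outside. It lay between 2 and 2.2 for 47 of the genes, and 64 further genes came as close as 1.8 to 2 without meeting it. Its median over the 265 genes was 2.73, and the smallest ratio was a step from embryo to young for 160 genes and a step from young to control for 105.

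The median gene stood at 46.7 CPM in embryonic hip, 12.2 CPM in young capsule and 2.17 CPM in control capsule. In ligament the median was 11.3 CPM in young and 1.98 CPM in control dogs. From embryo to young the median ratio was 3.3 in capsule and 3.54 in ligament, and from young to control it was 4.75 in capsule and 5 in ligament (264 genes, since 1 gene had no fragment in any control ligament). In most genes the later step was the larger one: the step from embryo to young exceeded it in only 86 genes in capsule and 102 in ligament. On the log2 scale the median gene had completed 0.435 of its fall by the young stage in capsule and 0.459 in ligament. Without the young dog numbered 2, the young medians of the same genes were 13.2 CPM in capsule and 12.1 CPM in ligament. The median ratios were then 2.96 and 3.2 for the first step and 5.39 and 5.32 for the second, and the first step was the larger in 60 genes in capsule and 77 in ligament. The whole fall, taken as the smaller of the capsule and ligament ratios of embryo to control, had a median of 18.2 and quartiles of 9.52 and 29.5. It reached 10-fold in 191 genes, 50-fold in 27 and 100-fold in 11.

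**Figure D1:**
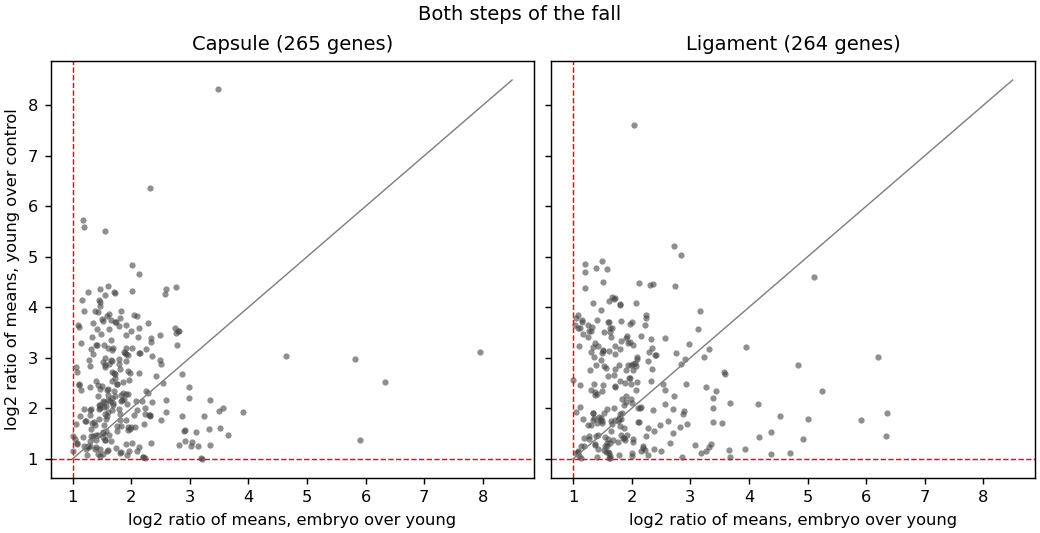
Each point is 1 of the 265 genes, with the log2 ratio of embryo to young mean on the horizontal axis and of young to control mean on the vertical axis, for capsule (left) and ligament (right, 264 genes). Dashed red lines mark the 2-fold limits that chose the genes, and the grey line marks equal steps; most points lie above it, and 86 genes in capsule and 102 in ligament lie below.

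The genes covered a wide range of abundance, from 5.32 to 4448 CPM in the embryo, and 65 were at or above 100 CPM. CPM is not corrected for transcript length, so it ranks share of fragments and not molecules. Length was similar. In the relative length implied by the deposited values (arbitrary unit), the median was 11.2 for these genes and 11.6 for all genes at 5 CPM or more in the embryo. Spread between the 3 embryo libraries was also similar, with a median coefficient of variation of 11.2% against 10.9%. At the other end of the fall many genes approached the limit of detection. The control mean was under 1 CPM for 72 genes in capsule and 86 in ligament, and 5 genes in capsule and 11 in ligament had only 1 to 3 fragments over all control libraries of the tissue. Ratios of those genes to control rest on few fragments.

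The mean ratios were matched by separation of single libraries at the first step and less fully at the second. Every embryo library exceeded every young capsule for 259 genes (97.7%) and every young ligament for 261 (98.5%). Among all 11642 genes at 5 CPM or more in the embryo, the corresponding shares were 51.1% and 55.5%. Every young capsule exceeded every control capsule for 168 genes (63.4%, against 5.64% of the 11642), and every young ligament exceeded every control ligament for 218 (82.3%, against 7.5%). Without the dog numbered 2, these counts were 233 genes (87.9%) in capsule and 239 (90.2%) in ligament. All of these contrasts are those of the rule, so the counts describe the genes and nothing is read from them.

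Together the 265 genes made up 3.25% ± 0.215 (SD, n = 3) of all fragments in embryonic hip. They made up 0.835% ± 0.239 (n = 6) in young capsule, 0.28% ± 0.0598 (n = 4) in affected capsule and 0.158% ± 0.0163 (n = 5) in control capsule. In ligament the share was 0.639% ± 0.173 (n = 4) in young dogs, 0.302% ± 0.0445 (n = 3) in affected dogs of 4 months, 0.162% ± 0.0194 (n = 4) in affected adults and 0.152% ± 0.0137 (n = 3) in controls. The affected ligaments thus separated by age: the dogs of 4 months ran from 0.261% to 0.349%, above all 4 affected adults (0.143% to 0.181%), and the affected adults overlapped the controls (0.144% to 0.168%). The affected capsules behaved otherwise. The 1 adult capsule, at 0.292%, lay inside the range of the dogs of 4 months (0.228% to 0.359%), and all 4 affected capsules lay above the control capsules (0.133% to 0.178%). A few abundant genes carried much of the sum, since 5 genes held 35.8% of the summed embryo CPM and the first of them 13.7%. Without those 5 the embryo share was 2.08%, the share in affected ligaments of 4 months 0.257% and that in affected adult ligaments 0.141%, and their ranges still did not overlap (0.224% to 0.297% and 0.126% to 0.155%).

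**Figure D2:**
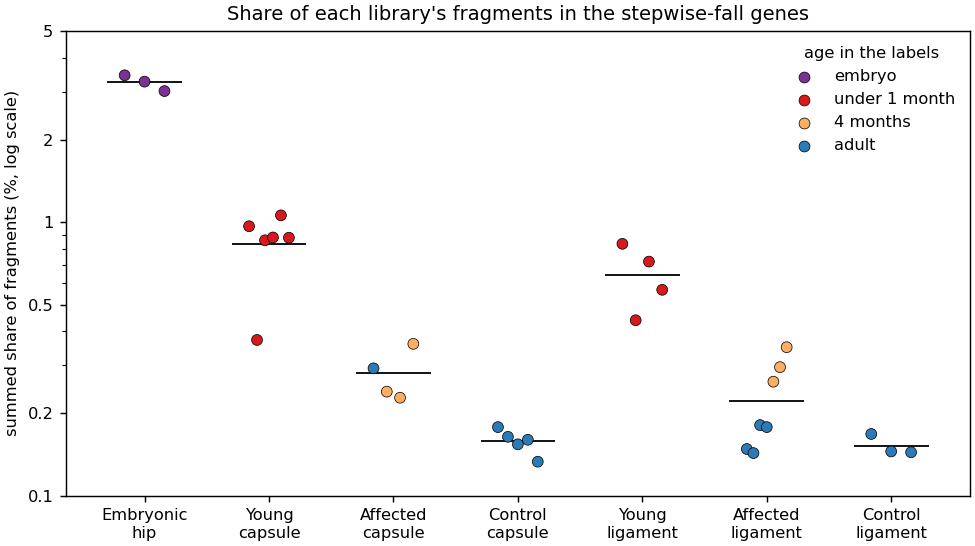
Each point is 1 library, coloured by the age in its labels, and shows the summed share of its fragments in the 265 genes (%, log scale); black lines are group means. Embryo libraries lie between 3.02% and 3.45%, 1 young capsule lies at 0.371% below the other young capsules, and affected ligaments of dogs of 4 months lie above those of adults.

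Scaling changes these distances, because the libraries differ in composition. TMM is a factor that brings the bulk of genes to the same level in every library. Relative to control capsule, the TMM-scaled library size differed from the library total by 0.32 on the log2 scale in embryo and 0.16 in affected ligaments of 4 months, which lowers CPM there. It differed by -0.21 in young capsule, -0.21 in young ligament and -0.15 in affected adult ligament, which raises CPM. The summed CPM on TMM-scaled sizes was 25130 in embryo, 9324 in young capsule, 7075 in young ligament, 1524 in control capsule and 1428 in control ligament, so the order of the stages held. Without the dog numbered 2 the young sums were 10296 in capsule and 7757 in ligament. Affected ligaments of 4 months summed to 2350 to 3005 and those of adults to 1444 to 2068. Under TMM the embryo and young stages moved closer together. When the same rule was applied to TMM-scaled CPM, 192 genes met it, of which 160 were among the 265 (60.4% of the 265 and 83.3% of the 192). Of the 105 genes lost, 102 no longer met the step from embryo to young and 0 failed the step from young to control.

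The dog numbered 2 had the lowest of the 6 young capsule values for 228 of the 265 genes (86%) and the lowest of the 4 young ligament values for 184 (69.4%). Over all 11642 genes at 5 CPM or more in the embryo, the same libraries were lowest for 26.7% in capsule and 32.5% in ligament. With TMM scaling the counts were 224 and 186. Its capsule devoted 0.371% of fragments to the genes, while the other 5 young capsules ran from 0.859% to 1.06%. Its ligament was at 0.438%, and the other 3 at 0.566% to 0.834%. Without this dog the mean shares were 0.928% ± 0.0827 (SD, n = 5) in young capsule and 0.706% ± 0.134 (n = 3) in young ligament. Set beside the affected dogs of 4 months, its capsule lay inside their range for 151 genes, above it for 94 and below it for 20. In ligament it lay inside for 122, above for 103 and below for 40. With TMM scaling the counts inside, above and below were 134, 118 and 13 in capsule and 74, 176 and 15 in ligament. In ligament most of the 265 genes were then above the dogs of 4 months. These counts were not taken over all genes, so a likeness or difference particular to the 265 is not read from them. Leaving out both of its libraries gave 256 genes by the same rule, 230 of them among the 265. Whether the dog's age or handling differs from that of the other young dogs was not tested.

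**Figure D3:**
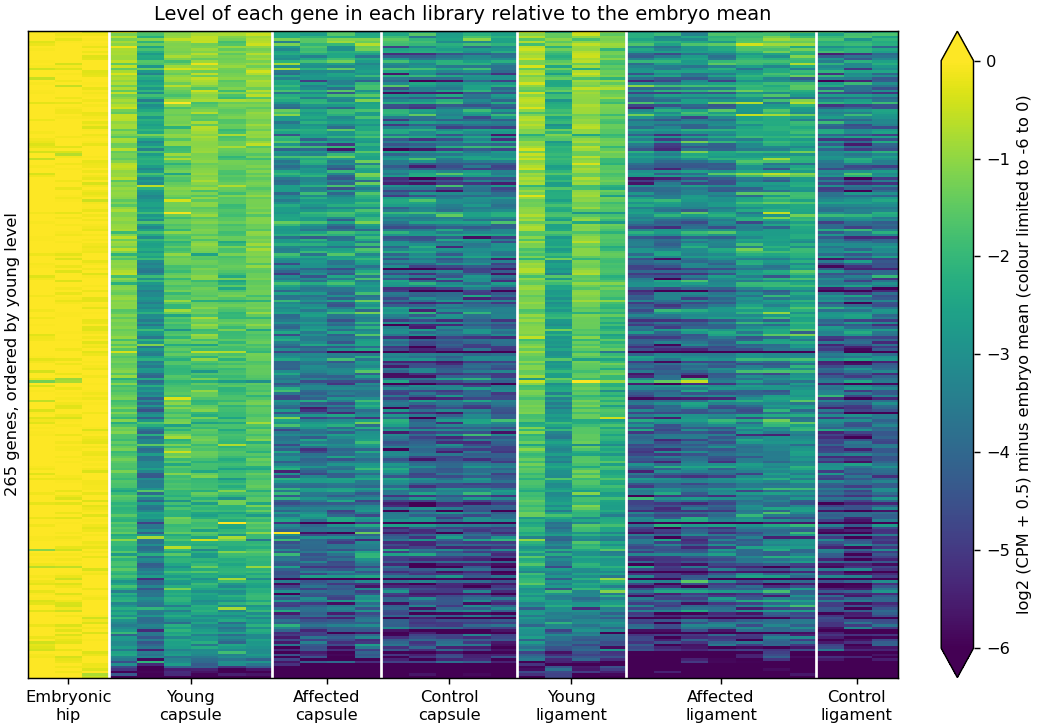
Rows are the 265 genes ordered by their young level and columns the 32 libraries by group, in replicate order (affected capsules: replicate 1 adult, then 4 months; affected ligaments: replicates 1 to 4 adult, then 4 months). Colour is log2 (CPM + 0.5) minus the gene's embryo mean, and the colour scale is cut at both ends; levels drop from young to control within each tissue, affected ligaments are lighter at 4 months than in adults, and the young libraries numbered 2 are darker than their neighbours.

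The largest fall, by the smaller of the capsule and ligament ratios, belonged to ENSCAFG00000002589, at 594-fold. In the 3 embryonic hips it was at 1851, 1548 and 1001 CPM. Young capsules ran from 3.9 to 8.34 CPM with a median of 5.94, and the 4 young ligaments, in replicate order, were at 11.1, 51.5, 9.02 and 7.98 CPM. Control capsules were at 0.35, 0.827, 0.207, 2.02 and 0 CPM, and control ligaments at 3.56, 3.64 and 0.206 CPM. The larger part of this gene's fall came before the young stage (0.718 of it in capsule and 0.673 in ligament on the log2 scale), with an embryo to young ratio of 248 in capsule and 73.7 in ligament. A further fall of 8.68-fold and 8.06-fold followed. The ligament ratios use a young mean of 19.9 CPM, which the 51.5 CPM of the dog numbered 2 raised above the median of 10 CPM. Ratios without that dog were not taken for this gene. The ligament of the dog numbered 2 was high for this gene and not low, opposite to most of the 265. Affected ligaments ran from 0.409 to 2.91 CPM with a median of 0.855 and overlapped the controls. On the length-corrected FPKM scale its embryo mean was 319.

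ENSCAFG00000013781 came next, at 113, 99.4 and 113 CPM in the embryonic hips. Young capsules ran from 0.482 to 2.41 CPM with a median of 1.28, and the young ligaments were at 3.85, 3.74, 3.06 and 1.99 CPM. Control capsules held 5 fragments in all and control ligaments 2, and in capsule the embryo mean was 461 times the control mean. Here too the first step was the larger, at 80.5-fold in capsule and 34.4-fold in ligament. Its lowest young ligament, 1.99 CPM, stood above its highest control ligament, 0.21 CPM. In capsule the groups overlapped, since the lowest young capsule, at 0.482 CPM, lay below the highest control capsule, at 0.62 CPM.

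**Figure D4:**
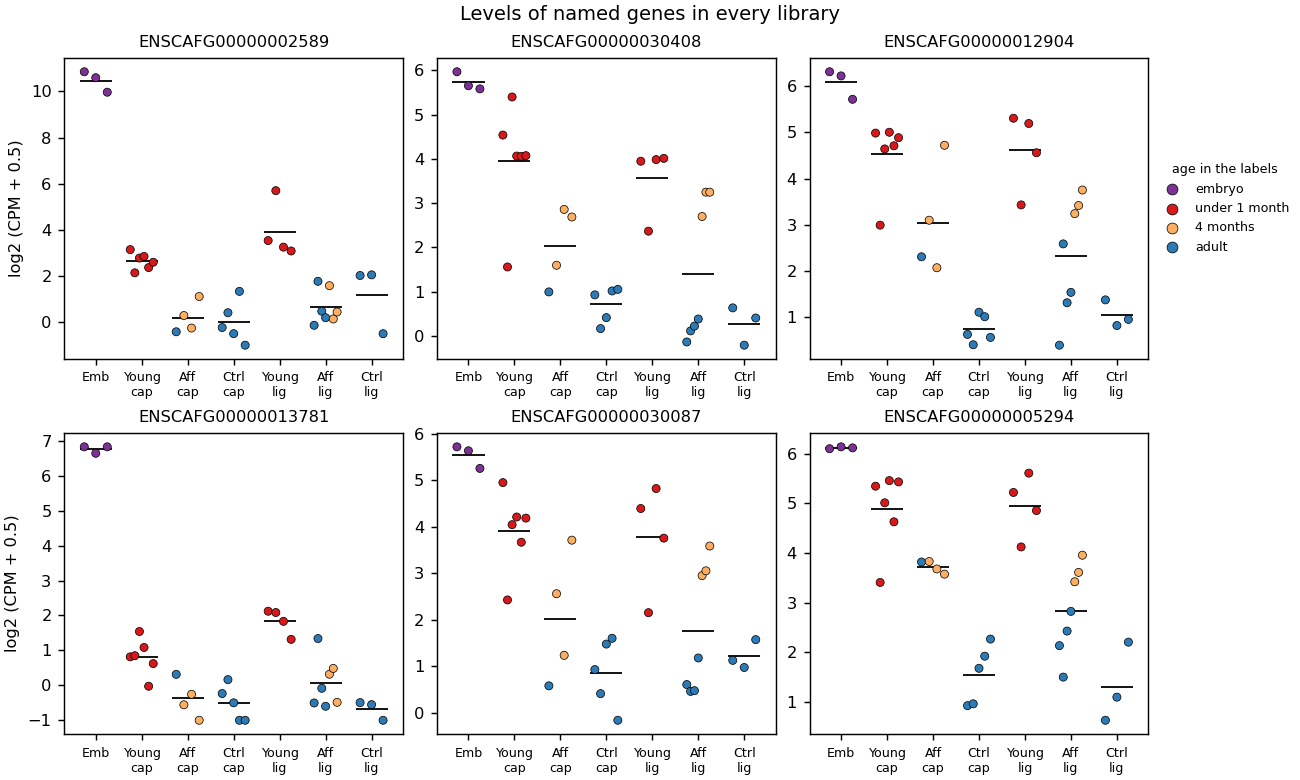
Each panel shows 1 named gene as log2 (CPM + 0.5) in every library, coloured by age, with group means as black lines. The left column holds the 2 largest falls, the middle column 2 genes higher in affected ligament at 4 months than in adults, and the right column 2 genes higher in affected than in control capsule.

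Whether the fall continued with age within affected dogs was asked in the affected ligaments, at 4 months (3 dogs) against adult (4 dogs). No affected library entered the fold limits of the rule, so this comparison is independent of the choice apart from the limit on overall abundance. The genes were mostly higher at 4 months. Without a filter on low counts, 204 of the 265 (77%) had a positive fold change, against 49.3% of all 18257 genes, and the median log2 fold change was 0.67 (quartiles 0.02 and 1.27, a median of 1.59-fold) against -0.01. In CPM on TMM-scaled sizes, every ligament of 4 months exceeded every adult ligament for 74 genes (27.9%, against 11.6% of all genes), and the reverse held for 4 (1.51%, against 10.9%).

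After the filter on low counts 180 of the 265 genes were tested with edgeR's quasi-likelihood test, and 85 were too low. At a Benjamini-Hochberg adjusted p under 0.05, 31 were higher at 4 months (17.2% of those tested), where 6.24% of all 12619 genes tested were. There were 2 lower at 4 months (1.11%), where 8.35% of all genes were. The 31 were higher by 1.74-fold to 9.93-fold with a median of 2.8-fold. Their embryo means started at 20.6 CPM and 15 were at 100 CPM or more. The 85 genes too low to test could not be called, so the levels of the 31 are partly set by the filter. With no filter, edgeR called 29 of all 265 genes higher (10.9%, against 3.49% of all genes) and 1 lower. The count depended on single libraries. It was 33 in both directions over all 7 dogs, and 19, 19, 14, 16, 17 and 9 without affected ligament 1, 2, 3, 5, 6 and 7, of which 1 to 3 are adults. Without affected ligament 4, 38 of the genes were higher and 1 lower. Calls over all genes moved as well. Those higher at 4 months numbered 787 with all 7 dogs, 954 without affected ligament 4 and 162 to 479 in the other fits. The 3 dogs of 4 months have identifiers with a common beginning that no adult's has, so age and any shared origin of these dogs cannot be told apart.

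ENSCAFG00000030408 differed most. On TMM-scaled sizes it was at 5.65, 7.26 and 8.14 CPM in the ligaments of 4 months and at 0.407, 0.689, 0.795 and 0.84 CPM in the adult ones. The groups were far apart, with a log2 fold change of 3.31 (SE 0.44, edgeR adjusted p = 0.007), and the call held without each of the 7 dogs in turn (adjusted p from 0.0046 to 0.031). Per library total, its level was 62, 49.7 and 47.3 CPM in the embryo, 14.9, 4.65, 15.3 and 15.6 CPM in young ligaments, and 1.05, 0.364 and 0.823 CPM in control ligaments. The ligaments of 4 months therefore lay between young and control dogs for this gene, apart from the young ligament numbered 2, which lay below them.

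For ENSCAFG00000030087 the ligaments of 4 months were at 6.82, 6.3 and 10.5 CPM and the adult ones at 1.02, 1.03, 1.06 and 1.85 CPM. The groups did not overlap, and the log2 fold change was 2.60 (SE 0.41, edgeR adjusted p = 0.0079). Leaving out each dog kept the call (adjusted p from 0.0056 to 0.031). In young ligaments this gene was at 20.5, 3.94, 27.8 and 13 CPM per library total and in control ligaments at 1.68, 1.46 and 2.47 CPM, so affected and control adults overlapped and the young ligament numbered 2 was again the lowest of its group.

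The 2 genes called lower at 4 months were from a total of 61 with a negative fold change. ENSCAFG00000014403 was at 4.94, 3.39 and 7.36 CPM at 4 months and at 8.95, 11.4, 10.3 and 15.1 CPM in affected adults (log2 fold change -1.12, SE 0.34, edgeR adjusted p = 0.049). ENSCAFG00000015431 was at 20.5, 16.5 and 20.5 CPM at 4 months and at 29.7, 24.8, 42.1 and 46.9 CPM in affected adults (log2 fold change -0.91, SE 0.25, edgeR adjusted p = 0.038). Neither pair of groups overlapped, but the first call was lost without any 1 of 6 ligaments (all but affected ligament 7, adjusted p up to 0.14) and the second without any 1 of 5 (affected ligaments 3 to 7, adjusted p up to 0.12).

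Across the genes, the age difference in affected ligament was larger where the later step of the fall was larger. Ordered by the young to control ratio in ligament, the 88 genes with the smallest ratios (2.01 to 3.39) had a median log2 difference between 4 months and adult of 0.25, the 88 in the middle 0.58 and the 88 with the largest ratios (7.84 to 194) 1.14, and 80 of these last were positive. Ordered by the embryo to young ratio, the medians ran the other way, at 0.81, 0.71 and 0.31. Spearman's rho across genes was 0.36 with the later step (264 genes) and -0.22 with the earlier one (265 genes). Without the young ligament numbered 2, rho was 0.37 and -0.24, and the medians were 0.25, 0.64 and 1.14 by the later step and 0.89, 0.69 and 0.29 by the earlier one. The young ligament mean is the numerator of the later ratio and the denominator of the earlier one. Opposite directions are therefore favoured by construction and are not 2 separate results. Genes share the same libraries and are not independent replicates, so these are descriptions. Split by embryo level, the median was 0.52 for the 65 genes at 100 CPM or more in the embryo and 0.70 for the other 200.

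The direction was the same for other ways of choosing the genes, but these returned largely the same genes and are not independent support. Of the 192 and 256 genes below, 160 and 230 were among the 265. Over all genes 49.3% were positive. Among the 192 genes that met the rule on TMM-scaled CPM, 131 (68.2%) were positive with a median of 0.47, and 13 were called higher with no filter on low counts (6.77%, against 3.49% of all genes). Of the 256 genes chosen without the young dog numbered 2, 192 (75%) were positive with a median of 0.55. Both sets were added after the data had been seen.

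In capsule the age question could not be tested, with 1 affected adult. That library was below all 3 capsules of 4 months for 67 of the 265 genes (25.3%), above all of them for 59 (22.3%) and within their range for 139 (52.5%). With TMM scaling the counts were 72, 55 and 138. The same counts over all genes were not taken, so nothing about these genes is read from them. The adult affected capsule exceeded every control capsule for 134 genes (50.6%), against 18.8% of the 18052 genes with a fragment in these libraries. The rule chose the genes for low control values, so this count is a description.

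The study's comparison of affected with control dogs shares its control libraries with the rule, which chose genes for low control values. A shift upwards in affected dogs is therefore favoured by the choice, and the counts below are read as descriptions. In capsule, 244 of the 265 genes (92.1%) had a higher fitted level in affected dogs, against 53.8% of 18561 genes, with a median log2 fold change of 0.90 against 0.04. All 4 affected capsules exceeded all 5 control capsules for 54 genes (20.4%, against 1.19% of all genes) and lay below all of them for 0. With the filter on low counts, edgeR's adjusted p was under 0.05 for 7 of 166 genes tested, all higher (4.22%, against 0.134% of 12718 genes). None was lower, where 0.102% of all genes were. At an unadjusted p under 0.05, 88 were higher, where 3.89% of all genes tested were, and 0 lower. DESeq2 called 24 of the 265 higher (9.06%, against 0.436% of all genes) and 0 lower. With no filter 12 of the 265 were called higher (4.53%, against 0.14%).

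The 7 calls depended on single libraries. Leaving out 1 library at a time gave between 0 and 7 calls: 7 without affected capsule 1, the adult, 1 without affected capsule 2 or control capsule 2, 4 or 5, and 0 without affected capsule 3 or 4 or control capsule 1 or 3. Calls over all genes tested moved as well, with 17 higher in the full fit, 20 without affected capsule 1 and 0 to 7 in the other fits. Over the same 9 fits the median log2 fold change of those of the 265 genes tested stayed between 0.80 and 0.95, and 92.4% to 96.9% of them were positive. With age class as a covariate the count was 0, and there the affected effect rests on the 1 adult capsule against the controls. When the genes were chosen from embryo and ligament libraries alone, so that no capsule library entered the choice, 383 genes qualified, including all 265. Of these, 340 (88.8%, against 53.8% of all genes) were higher in affected capsule, and the median was 0.73 against 0.04. All affected capsules exceeded all control capsules for 59 (15.4%, against 1.19% of all genes). The edgeR test called 7 of the 251 tested higher, where 17 of all 12718 genes tested were. Control capsule 3 and control ligament 1 were from the same dog, so this choice was not wholly separate from the capsules compared, and it was added after the data had been seen.

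**Figure D5:**
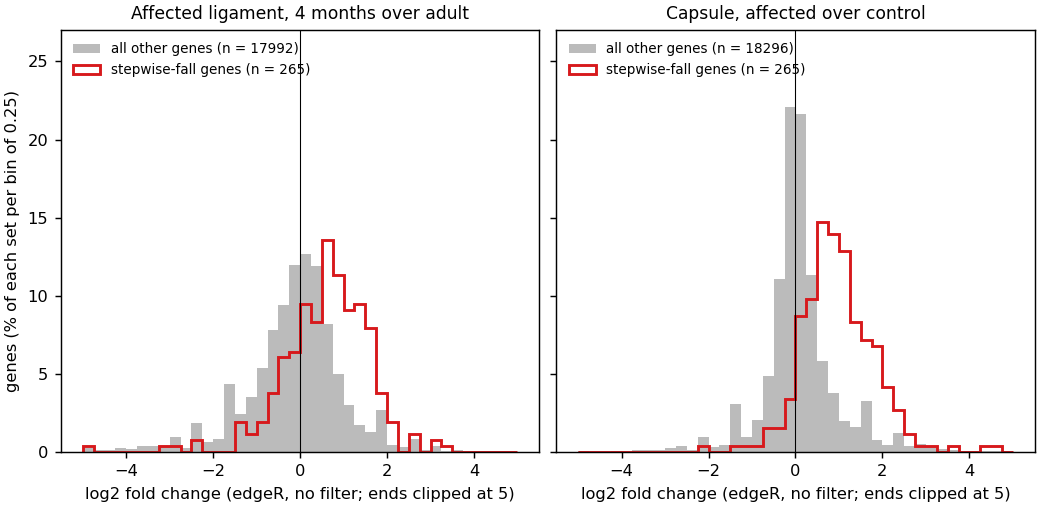
Histograms of log2 fold change fitted without a filter on low counts, as a percentage of each set per bin of 0.25, for the 265 genes (red outline) and all other genes with a fragment (grey), in affected ligament at 4 months against adult (left) and affected against control capsule (right). The red outlines lie to the right of the grey in both panels, with medians of 0.67 and 0.90; in the right panel the choice of genes used the control libraries.

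Among the called genes without overlap between the groups, ENSCAFG00000012904 had the largest difference in capsule. It was at 4.69, 8.46, 4.29 and 25.8 CPM in affected capsules 1 to 4 and at 0.975, 0.779, 1.58, 1.49 and 0.972 CPM in control capsules 1 to 5. All affected values were above all controls, and affected capsule 4, from a dog of 4 months, was well above the other 3. The log2 fold change was 3.19 (SE 0.56, edgeR adjusted p = 0.039), and the call was lost in 8 of 9 fits that left out 1 library (all but affected capsule 1, adjusted p up to 0.13). For ENSCAFG00000005294 the affected capsules lay close together, at 14.3, 14.3, 14.2 and 11.4 CPM, against 1.3, 1.36, 2.56, 3.23 and 4.28 CPM in controls. Its log2 fold change was 2.38 (SE 0.36, edgeR adjusted p = 0.029), and the call was lost without affected capsule 2, 3 or 4 or control capsule 1 or 3 (adjusted p up to 0.087). Per library total this gene was at 10.1 to 43.4 CPM in young capsules and 68 to 69.8 CPM in embryonic hip, so the affected capsules lay near young capsule 2 and below the other 5 young capsules. Of the 7 genes called in capsule, 3 were also among the 31 called in affected ligament (42.9% of the 7 and 9.68% of the 31), and the same 3 dogs of 4 months contributed to both comparisons.

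In ligament most genes were also higher in affected dogs, but none was called. The fitted level was higher in affected dogs for 236 of the 265 genes (89.1%, against 55.8% of all genes), with a median log2 fold change of 0.82 against 0.08. All 7 affected ligaments exceeded all 3 control ligaments for 13 genes (4.91%, against 0.981%). Of 184 genes tested with edgeR, the adjusted p was under 0.05 for 0 (0% of all 12937 genes as well), 51 had an unadjusted p under 0.05, all of them higher (4.55% of all genes were higher by this measure), and DESeq2 called 0, where it called 6 of all genes higher and 5 lower. The affected group here mixes ages. With the 4 adult affected ligaments alone the median was 0.46 over 148 genes tested, and again 0 were called. Chosen from embryo and capsule libraries alone, 517 genes qualified, of which 376 of 515 with a fragment (73%) were higher in affected ligament, with a median of 0.51.

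On a scale that put the control mean of log2 CPM (0.5 CPM added) at 0 and the young mean at 1 over the 265 genes, affected capsules averaged 0.34 ± 0.11 (SD, n = 4; 0.23 to 0.49), and the adult among them was at 0.32. Affected ligaments of 4 months averaged 0.50 ± 0.11 (n = 3; 0.39 to 0.62), and those of adults 0.08 ± 0.08 (n = 4), with a highest value of 0.17. With TMM scaling the 3 values were 0.36, 0.40 and 0.14. Without the young library numbered 2, the mean position was 0.30 in affected capsule and 0.24 over all 7 affected ligaments, against 0.34 and 0.26 with it. On this scale affected capsules of both ages lay between the ends, whereas affected ligaments did so mainly at 4 months. The rule chose genes with a young mean well above a low control mean. A place between the 2 ends was therefore favoured by the choice, and these positions and counts are descriptions. Gene by gene, the affected mean fell between the control and young means for 231 genes in capsule and 228 in ligament, was below control for 33 and 35, and above young for 1 and 2. For adult affected ligaments alone, 97 genes were below the control mean and 167 between. A difference between tissues in these positions was not tested.

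Capsule and ligament of the same dog were compared next. In the 3 affected dogs of 4 months, capsule against ligament of the same dog gave a median log2 difference of 0.01 over all 265 genes, with quartiles of -0.44 and 0.40, against -0.03 for all genes. Genes thus lay on both sides. With edgeR and the dog as a block, 3 of 207 genes tested were higher in capsule (1.45%, against 1.23% of 13076 genes), which is near the background. The count was 0 for lower in capsule (0.0765% of all genes), with 2 at an unadjusted p under 0.05 and 0 by DESeq2. ENSCAFG00000017519 was at 11, 4.36 and 3.72 CPM in capsule and 0.723, 0.247 and 0.792 CPM in ligament (log2 fold change 3.27, SE 0.67, edgeR adjusted p = 0.047). ENSCAFG00000017929 was at 33.2, 40 and 15.6 CPM in capsule and 5.78, 4.69 and 6.93 CPM in ligament (log2 fold change 2.25, SE 0.43, edgeR adjusted p = 0.031). Capsule was higher in all 3 dogs for both genes, and both calls were lost without the dog of affected capsule 2 or that of affected capsule 3 (adjusted p up to 0.47 and 0.15). The count of 3 was 1 without either of those dogs.

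The 3 young dogs with both tissues, whose libraries also helped to choose the genes, were compared in the same way. The median log2 difference was 0.03 over the 265 genes against -0.01 over all genes. Among the genes tested it was 0.04 and depended on single dogs. It was 0.17 without the dog numbered 2 (71.6% positive, against 49.8% of all genes tested). Without the dog of young capsule 6 it was -0.08 (39.4% positive, against 45.8%). The edgeR test with the dog as a block called 5 of 262 tested genes higher in capsule (1.91%, against 2.69% of 13051). None was called lower (1.46% of all genes), with 6 at an unadjusted p under 0.05 and 1 by DESeq2. ENSCAFG00000018422 was at 4.49, 31.1 and 15.2 CPM in young capsules 1, 2 and 6 and 0.718, 2.55 and 0.93 CPM in the ligaments of the same dogs (log2 fold change 3.50, SE 0.31, edgeR adjusted p = 0.0013). Each dog had more in capsule than in ligament, and the level differed widely between dogs. ENSCAFG00000008359 was at 16.9, 3.55 and 10.4 CPM in capsule and 3.45, 0.745 and 1.3 CPM in ligament (log2 fold change 2.47, SE 0.29, edgeR adjusted p = 0.0051), and its call was lost without the dog numbered 1 (edgeR adjusted p = 0.097). The count of 5 was 1 without that dog and 8 without the dog numbered 2. Over the set as a whole the dogs differed. Per library total, 139, 56 and 225 of the 265 genes were higher in capsule in the dogs with young capsules 1, 2 and 6. In the affected dogs of 4 months the counts were 107, 83 and 118, and in the control dog 122. The share over all genes was not taken for single dogs, so these counts are not read as particular to the 265.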

How the data were processed

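The submitters' processing notes name the canFam3 genome, TopHat2 2.0.13, Bowtie2 2.2, Cuffdiff 2.2.1 and cutadapt 1.8. What each tool did, which annotation was used and how strand was treated in counting is not given in the sources used here. In the deposited table of all samples is an estimated count of fragments for each gene and library, per the file headers, and 0.332% of these values lay more than 1e-06 off a whole number. Counts were rounded before testing. The deposited scaled signal, divided by the deposited FPKM, gave relative length, and FPKM was also used for the level of 1 gene.

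CPM was the count over the library total for the rule and on TMM-scaled sizes within comparisons. Each comparison was fitted over all genes of the libraries compared with edgeR 4.0.16 in R 4.3.3 (filterByExpr, TMM, robust quasi-likelihood F test, Benjamini-Hochberg adjustment, adjusted p under 0.05), with the dog as a block where both tissues came from the same dogs. The code was tested on simulated data first. Standard errors derive from the F statistic. P-values measure the spread between dogs within each group. Where the dog was a block, they measure instead the spread across dogs of the difference between tissues. Alternatives were DESeq2 1.42.0, its size factors, no filter, and each replicate left out.

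The 265 genes, the lists and the tests were chosen with earlier results of these data known. Named genes were limited to 2 in each direction: the largest called changes with no overlap between groups and 5 CPM or more on average in the higher group (paired: 1 sign in every dog), and the 2 largest falls. The reference table matched 0 gene IDs, so the gene lists and cell type markers, given by symbol, were not tested and no sequence is shown.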

Additional observations from a re-analysis of the deposited data

Results flagged for a closer look

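A sample far from the rest of its group was looked for in groups of 4 to 10 libraries, for the summed share and for the 12 named genes. Of 65 groups tested 8 had such a sample, where chance gives about 1 in 20. Levels are CPM per library total. The dog numbered 2 among the young gave 4 of the 8: its capsule was low in summed share at 0.371% and in ENSCAFG00000012904 at 7.47 CPM, and its ligament was low in ENSCAFG00000030408 at 4.65 CPM and high in ENSCAFG00000002589 at 51.5 CPM. Affected ligament 3 was high in ENSCAFG00000008359 at 1.55 CPM and in ENSCAFG00000018422 at 3.32 CPM. Affected ligament 2 was high in ENSCAFG00000013781 at 2.03 CPM. Control capsule 3, at 0.207 CPM for ENSCAFG00000008359, was the only one of the 5 control capsules not at 0.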

How the results depend on the processing

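The number of genes meeting the rule was 98 with 3-fold steps, 511 with 1.5-fold steps and 921 with no minimum level, and 248 to 278 without 1 library. In affected ligaments the count of 33 at 4 months against adult ranged from 9 to 39 without 1 library. Within dogs of 4 months the count of 3 between tissues was 6 by DESeq2, 6 with no filter and 1 to 4 without 1 dog. Over all 18051 genes DESeq2 called 286 higher and 28 lower there, and edgeR with no filter 249 and 22. In young dogs the count of 5 was 8 by DESeq2, 9 with no filter, 2 with no replicate block, 14 with all young libraries and 1 to 8 without 1 dog. Over all 17945 genes of the young dogs DESeq2 called 471 higher and 296 lower, and edgeR with no filter 469 and 336. With no replicate block 158 of 12632 genes were called higher and 27 lower. With all young libraries the calls were 490 and 288 of 12773. In capsule the count of 7 for affected against control was 24 by DESeq2, 12 with no filter, 0 with age class as a covariate and 0 to 7 without 1 library. The cause of these changes was not tested. With the replicate number as a block the count was 0 in capsule and 0 in ligament, where 137 of all genes were then called higher and 63 lower, but the numbers do not pair the dogs and not every library correlated best with its own number: correlations of same-numbered deviations were -0.08, 0.22, -0.21 and -0.37 in capsule and -0.11, -0.21 and 0.51 in ligament. Ligament gave 0 calls among these genes in all 16 alternatives run, and positions between young and control moved by less than 1 SD in all 18 run for capsule and 17 for ligament. The SD over all 7 affected ligaments, 0.24, spans both ages and is a wide limit. With TMM scaling the mean position moved from 0.50 to 0.40 at 4 months (SD 0.11) and from 0.08 to 0.14 in adults (SD 0.08). Depth limits the low end of the fall: 85 of the 265 genes were too low to test with age in ligament and 99 for disease in capsule.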
